A study of Mus musculus with 14 samples.

Results

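The caveolin and cavin genes encode the coat of caveolae, and these genes with Ehd2, 8 in all, were followed across 4 genotypes of embryonic mouse heart. They are the caveolins Cav1, Cav2 and Cav3, the cavins Cavin1, Cavin2, Cavin3 and Cavin4, and Ehd2. The genes were taken by name, using current or older symbols (Ptrf, Sdpr, Prkcdbp and Murc for the cavins), and the family was chosen by the log2 signal of Cav1, which was lower in double mutant hearts. All 8 were found on the array, each with 1 probe set, among 19931 named genes. Every value from a comparison that holds double mutant arrays is therefore a description and carries no p-value.

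Caveolae are small flask-shaped pits of the plasma membrane. Caveolins are inserted into the membrane as oligomers, and cavins bind the inner face as a coat that gives the pit its shape. EHD2 is an ATPase that sits at the neck and holds the pit at the surface. Endothelial cells are rich in caveolae built with caveolin 1 and caveolin 2, whereas caveolin 3 and cavin 4 are the forms of striated muscle. Irx3 and Irx5 are Iroquois homeodomain transcription factors.

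Hearts of embryos at E12.5, a stage in embryonic days, were profiled on 14 Affymetrix Mouse Gene 1.0 ST arrays. The study's reference group was Irx5+/- (n = 3), and it was set beside Irx3-/-;Irx5+/- (n = 4), Irx5-/- (n = 3) and the double mutants, Irx3-/-;Irx5-/- (n = 4). Every group, the reference included, lacks at least 1 functional copy of Irx5, and no wild-type heart was compared. Neither the alleles nor any Cre driver is given in the labels, and nothing there says that the arrays came from different embryos. A p-value here therefore speaks only of the spread among the 14 arrays, which may be partly technical.

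Values are log2 intensities, on which a difference of 1 is a doubling. Array medians ran from 7.89 to 7.99, correlations between arrays from 0.962 to 0.987, and no pair of arrays was identical. Irx3 signal was 8.43 to 8.53 on the reference arrays, 7.87 to 8.17 on Irx3-/-;Irx5+/-, 8.14 to 8.25 on Irx5-/- and 7.60 to 7.86 on the double mutants. Irx5 signal averaged 8.32, 8.26, 8.04 and 8.05 in the same order, and the Irx5-/- arrays overlapped the reference (limma difference -0.29 ± 0.19 SE, adjusted p = 0.588). Whether the Irx3 and Irx5 probes lie inside the deleted parts is not stated, so Irx5 does not check the labels. Replicate 4 of Irx3-/-;Irx5+/- carries that genotype in its title and genotype field, but its description names Irx5-/- embryos. Its Irx3 signal was 8.17, against 7.87 to 7.93 on the other 3 arrays of its group and 8.14 to 8.25 on the Irx5-/- arrays. Its Irx5 signal was 8.31, against 8.21 to 8.31 and 7.86 to 8.34 on the same arrays. The array was kept in the group its title gives, and several results that rest on it are given with and without it.

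Cav1, the caveolin that forms caveolae outside striated muscle, had the widest spread of group means in the family. Its log2 signal was 10.78, 10.42 and 10.53 on the Irx5+/- arrays, and 10.04, 10.20, 10.28 and 10.63 on the Irx3-/-;Irx5+/- arrays. It was 9.93, 10.15 and 9.88 on the Irx5-/- arrays, and 9.92, 9.31, 9.53 and 9.06 on the double mutant arrays. Group means were 10.58 ± 0.19 (SD, n = 3), 10.29 ± 0.25 (SD, n = 4), 9.99 ± 0.14 (SD, n = 3) and 9.45 ± 0.36 (SD, n = 4). The order of means was thus Irx5+/-, Irx3-/-;Irx5+/-, Irx5-/- and double mutant from high to low, and the arrays of each neighbouring pair in that order overlapped. All double mutant arrays lay below all arrays of the reference and of Irx3-/-;Irx5+/-, and replicate 1 reached into the Irx5-/- range. Against Irx5+/-, the difference was -0.29 ± 0.19 (SE, 95% interval -0.69 to 0.11) for Irx3-/-;Irx5+/- and -0.59 ± 0.20 (SE, 95% interval -1.02 to -0.16) for Irx5-/-. Both share the Irx5+/- arrays with the comparison in which Cav1 was seen to be low, so they are not independent of the choice of the gene, and neither passed in the limma test over all genes (adjusted p = 1 and 0.36). The comparison that holds neither reference nor double mutant arrays, Irx5-/- against Irx3-/-;Irx5+/-, gave -0.30 ± 0.19 (SE, 95% interval -0.70 to 0.10, limma adjusted p = 0.783). Without the array of conflicting labels it gave -0.19 ± 0.19 (SE, limma adjusted p = 0.899).

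**Figure D1:**
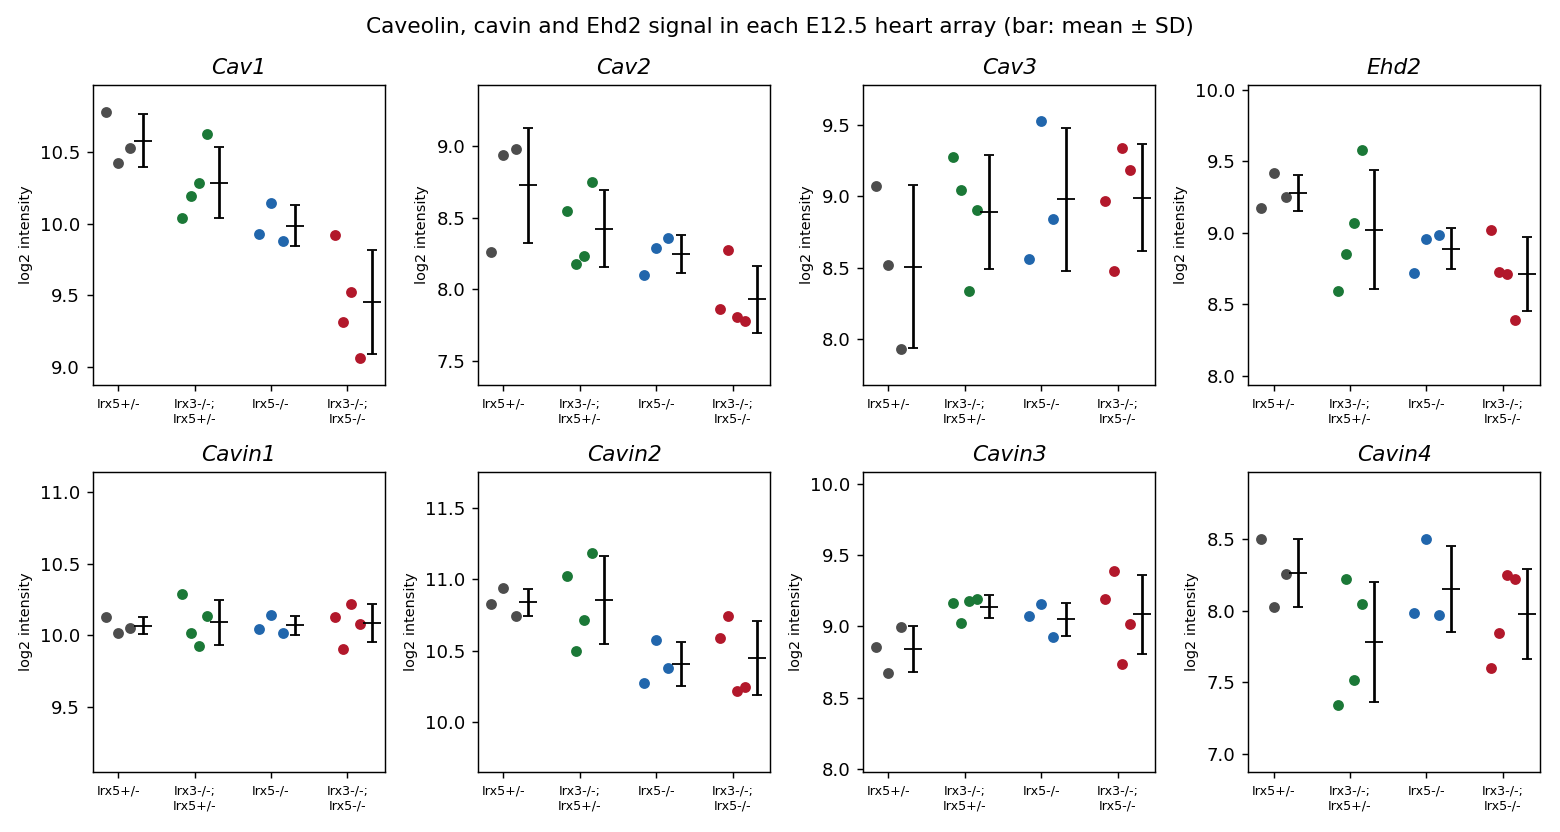
Log2 intensity (y axis) of each caveolin, cavin and Ehd2 probe set on the 14 arrays, by genotype (x axis); points are arrays and bars are mean ± SD. Every panel spans the same number of log2 units. Cav1 means step down from 10.58 in Irx5+/- to 9.45 in double mutants, while Cavin1 means lie between 10.07 and 10.09.

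Cav2, which depends on caveolin 1 to reach the plasma membrane, neighbours Cav1 on chromosome 6. Both had their lowest mean in the double mutants, as Ehd2 also did, and the upstream sequences of these 2 neighbours alone are shown. They are the 250 bases before each RefSeq gene start on the plus strand of GRCm38.p6, at chr6:17306085-17306334 for Cav1 (the first of its 2 windows) and chr6:17280935-17281184 for Cav2. Capitals mark GGGCGG, the GC box read by Sp and Klf factors, or its reverse complement.
Cav1: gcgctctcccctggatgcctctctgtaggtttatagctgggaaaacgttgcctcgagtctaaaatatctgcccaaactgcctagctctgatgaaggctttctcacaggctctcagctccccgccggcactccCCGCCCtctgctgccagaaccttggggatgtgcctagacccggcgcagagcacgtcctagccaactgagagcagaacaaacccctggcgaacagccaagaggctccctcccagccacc
Cav2: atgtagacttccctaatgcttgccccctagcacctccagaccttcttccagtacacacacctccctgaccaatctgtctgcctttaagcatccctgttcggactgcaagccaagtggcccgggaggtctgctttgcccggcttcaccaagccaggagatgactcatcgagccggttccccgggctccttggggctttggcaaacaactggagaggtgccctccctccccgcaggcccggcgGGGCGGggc
The match begins 118 bases before the start in Cav1 and 9 bases before it in Cav2, and each gene has a further match that runs past the start. In windows from 250 bases before to 50 after a start, on both strands, GGGCGG was present for 4 of the 7 members that have a window (Cav1, Cav2, Cavin1 and Ehd2) and for 38.2% of the 27025 genes with 1 or more windows. The Iroquois letters ACANNTGT were found for 0 of the 7 members and 8.39% of genes, the ETS letters CGGAAG for 0 and 18.8%, and the GATA letters GATAAG for 0 and 8.58%. A gene was counted once if any of its windows held the letters. These counts describe letters in a short window only. Cavin3 has no window in the table.

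Cav2 signal was 8.26, 8.94 and 8.98 on the Irx5+/- arrays, 8.54, 8.18, 8.23 and 8.75 on Irx3-/-;Irx5+/-, 8.10, 8.29 and 8.36 on Irx5-/-, and 7.86, 8.28, 7.81 and 7.77 on the double mutants. Its group means, 8.73 ± 0.40 (SD, n = 3), 8.42 ± 0.27 (SD, n = 4), 8.25 ± 0.13 (SD, n = 3) and 7.93 ± 0.23 (SD, n = 4), had the same order as those of Cav1. The arrays of neighbouring groups overlapped throughout, and reference replicate 1 was low, below double mutant replicate 2. The difference from Irx5+/- was -0.30 ± 0.19 (SE, adjusted p = 1 in limma) for Irx3-/-;Irx5+/- and -0.48 ± 0.21 (SE, adjusted p = 0.442) for Irx5-/-.

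Cav3, the muscle caveolin, had its lowest mean in the reference. Its signal was 9.07, 8.52 and 7.93 on the Irx5+/- arrays, 9.28, 9.04, 8.33 and 8.90 on Irx3-/-;Irx5+/-, 8.56, 9.53 and 8.84 on Irx5-/-, and 8.97, 8.47, 9.33 and 9.18 on the double mutants. Means were 8.51 ± 0.57 (SD, n = 3), 8.89 ± 0.40 (SD, n = 4), 8.98 ± 0.50 (SD, n = 3) and 8.99 ± 0.37 (SD, n = 4), and all groups overlapped. Reference replicate 3, the lowest array for Cav3, also had the lowest mean of cardiomyocyte markers (10.33, against 11.35 to 12.74 on the other 13 arrays). The differences of 0.38 ± 0.31 (SE) for Irx3-/-;Irx5+/- and 0.47 ± 0.33 (SE) for Irx5-/- did not pass (limma adjusted p = 1 and 0.605). They depended on single arrays: they were 0.09 and 0.18 without reference replicate 3, and 0.66 and 0.75 without reference replicate 1. Irx5-/- replicate 2 was the highest array for Cav3, at 9.53. Without it, Irx5-/- against Irx3-/-;Irx5+/- was at -0.19 in place of 0.09.

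Ehd2, the ATPase of the caveolar neck, had signals of 9.17, 9.42 and 9.25 on the Irx5+/- arrays, 8.60, 8.85, 9.07 and 9.58 on Irx3-/-;Irx5+/-, 8.72, 8.96 and 8.99 on Irx5-/-, and 9.02, 8.73, 8.71 and 8.39 on the double mutants. Means were 9.28 ± 0.13 (SD, n = 3), 9.02 ± 0.42 (SD, n = 4), 8.89 ± 0.15 (SD, n = 3) and 8.71 ± 0.26 (SD, n = 4). The order of means was again that of Cav1. All Irx5-/- arrays and all double mutant arrays lay below all reference arrays, whereas the Irx3-/-;Irx5+/- group spanned the reference because its replicate 4 was the highest of the 14. Ehd2 differed from Irx5+/- by -0.26 ± 0.20 (SE, limma adjusted p = 1) in Irx3-/-;Irx5+/- and by -0.39 ± 0.21 (SE, adjusted p = 0.521) in Irx5-/-.

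For Cavin1, the coat protein that every caveola needs, the 14 values lay between 9.90 and 10.29, and the group means between 10.07 and 10.09. Its difference was 0.03 ± 0.10 (SE, 95% interval -0.20 to 0.25) in Irx3-/-;Irx5+/- and 0.00 ± 0.11 (SE, 95% interval -0.24 to 0.24) in Irx5-/- against Irx5+/-.

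Cavin2, a cavin abundant in endothelial cells, had higher means in the 2 groups that keep an Irx5 copy. Its signal was 10.83, 10.94 and 10.75 on the Irx5+/- arrays, 11.02, 10.50, 10.72 and 11.19 on Irx3-/-;Irx5+/-, 10.27, 10.57 and 10.38 on Irx5-/-, and 10.59, 10.75, 10.22 and 10.25 on the double mutants. Means were 10.84 ± 0.10 (SD, n = 3), 10.86 ± 0.31 (SD, n = 4), 10.41 ± 0.15 (SD, n = 3) and 10.45 ± 0.26 (SD, n = 4). The Irx5-/- arrays lay below the reference arrays, and so did the double mutant arrays, although double mutant replicate 2 and reference replicate 3 agreed to 2 decimals. Irx5-/- differed from Irx5+/- by -0.43 ± 0.18 (SE, limma adjusted p = 0.435) and from Irx3-/-;Irx5+/- by -0.45 ± 0.17 (SE, adjusted p = 0.764). The difference between Irx3-/-;Irx5+/- and Irx5+/- was 0.02 ± 0.17 (SE, adjusted p = 1).

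Cavin3, which binds cavin 1 in the coat, gave 8.86, 8.68 and 9.00 on the Irx5+/- arrays and 9.16, 9.02, 9.18 and 9.19 on Irx3-/-;Irx5+/-. The latter 4 arrays were all above the reference, by 0.29 ± 0.14 (SE, limma adjusted p = 0.979). Irx5-/- arrays lay at 8.93 to 9.15 and double mutant arrays at 8.74 to 9.39, both overlapping the reference.

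Cavin4, the cavin of striated muscle, had means of 8.26 ± 0.24 (SD, n = 3), 7.78 ± 0.42 (SD, n = 4), 8.15 ± 0.30 (SD, n = 3) and 7.98 ± 0.32 (SD, n = 4) in Irx5+/-, Irx3-/-;Irx5+/-, Irx5-/- and the double mutants. Its lowest mean was thus in Irx3-/-;Irx5+/-, at -0.48 ± 0.23 (SE, limma adjusted p = 0.979) from the reference, and all groups overlapped. Cavin4 was also the one member whose mean over all arrays was under the median level of all genes (8.07), and 7 of the 8 passed a filter at that level.

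In the comparison of Irx3-/-;Irx5+/- with Irx5+/-, 0 of the 8 members passed in limma at an adjusted p under 0.05, and 0% of the 19931 genes did. At an unadjusted p under 0.05 the counts were 0 members and 1010 genes. The median member difference was -0.12, against 0.00 over all genes. None of the 8 had all Irx3-/-;Irx5+/- arrays below the reference, where 2.87% of genes did, and Cavin3 alone had all of them above, where 2.86% did. Without replicate 4 of Irx3-/-;Irx5+/-, whose labels conflict, Cav1 (-0.41 ± 0.19 SE) and Ehd2 (-0.44 ± 0.16 SE) had all remaining arrays below the reference, and 4.76% of genes did (both at a limma adjusted p of 1). Without reference replicate 1, Cav2 alone lay below (7.65% of genes), and without reference replicate 2, Cavin4 alone (6.36%).

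In the comparison of Irx5-/- with Irx5+/-, again 0 of the 8 members and 0% of all genes passed in limma. Cav1, Cav2 and Cavin2 were under an unadjusted p of 0.05, as were 2122 genes. Cav1 was chosen by a comparison that held these same reference arrays. Its place in counts against the reference is therefore not independent of that choice. The median member difference was -0.25, against -0.03 over all genes. Cav1, Cavin2 and Ehd2, 3 of 8, had all Irx5-/- arrays below all reference arrays, where 9.52% of genes did, and these 3 stayed so without any one array, where 13.4% to 19.5% of genes did. Cav2 joined them without reference replicate 1 (18.8% of genes), and Cavin4 without Irx5-/- replicate 2 (13.7%). No member had all Irx5-/- arrays above the reference, where 6.71% of genes did; Cav3 did without reference replicate 1 (12.6% of genes), and Cavin3 without reference replicate 3 (2183 of 19931 genes) or Irx5-/- replicate 3 (11.2%).

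Irx5-/- and Irx3-/-;Irx5+/- hearts, which each lack 1 of the 2 factors, were also set against each other. In limma 0 of the 8 members and 0% of all genes passed, with 1282 genes and Cavin2 alone of the members under an unadjusted p of 0.05. The median member difference was -0.11, against -0.02 over all genes. No member had all Irx5-/- arrays below all Irx3-/-;Irx5+/- arrays, where 5.43% of genes did, or all above, where 3.21% did. Cav1 lay below without Irx3-/-;Irx5+/- replicate 1 (9.31% of genes), Cavin2 and Cavin3 without its replicate 2 (6.92%), and Cav1 and Cavin2 without Irx5-/- replicate 2 (10.1%). Without the array of conflicting labels, Cavin2 differed by -0.34 ± 0.17 (SE, limma adjusted p = 0.891) and Ehd2 by 0.05 ± 0.16 (SE, adjusted p = 0.964), the latter with a changed sign. Cav1 was then at -0.19 ± 0.19 (SE, limma adjusted p = 0.899) in place of -0.30. Cav2 was at -0.07 ± 0.20 (SE, limma adjusted p = 0.96) in place of -0.18.

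The double mutant differences are given without tests. Against Irx5+/-, they were -1.13 ± 0.19 (SE, 2.18-fold lower) for Cav1, -0.80 ± 0.19 (SE, 1.74-fold lower) for Cav2 and -0.57 ± 0.20 (SE, 1.48-fold lower) for Ehd2. They were -0.39 ± 0.17 (SE) for Cavin2, -0.28 ± 0.23 (SE) for Cavin4, 0.02 ± 0.10 (SE) for Cavin1, 0.24 ± 0.14 (SE) for Cavin3 and 0.48 ± 0.31 (SE) for Cav3. The family thus ranged from a lower Cav1 to a Cav3 with a mean above the reference, with a median of -0.34 against -0.03 over all genes. Cav1, Cavin2 and Ehd2 had all double mutant arrays below the reference, where 5.58% of genes did, and 0.0201% of genes passed in limma. No member had all of them above, where 6.48% of genes did, although Cavin3 did without double mutant replicate 3 (9.12% of genes). Among those below, Cav2 was added without reference replicate 1 (2488 of 19931 genes) or double mutant replicate 2 (7.88%), and Cavin4 without reference replicate 2 (8.92%). Cavin2 was among those below by a near tie, 10.74593 on double mutant replicate 2 against 10.74604 on reference replicate 3.

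Against Irx3-/-;Irx5+/-, double mutant Cav1 differed by -0.83 ± 0.17 (SE), or -0.72 ± 0.17 (SE) without the array of conflicting labels. It was the one member with all arrays below, where 2.18% of genes lay below and 0.00502% passed in limma, and it remained so without any one array, where 3.06% to 6.42% of genes did. No member had all arrays above, where 2.64% of genes did. Cav2 joined Cav1 without double mutant replicate 2 (3.98% of genes). Other members differed from Irx3-/-;Irx5+/- by -0.49 to 0.20, with Ehd2 at -0.31 ± 0.18 (SE) and at -0.13 ± 0.15 (SE) without the array of conflicting labels. Without that array, Cav2 was at -0.39 ± 0.18 (SE) in place of -0.49, and Cavin2 at -0.30 ± 0.16 (SE) in place of -0.41.

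Against Irx5-/-, which differs from the double mutants by Irx3 alone, Cav1 was at -0.53 ± 0.19 (SE, 1.45-fold lower) and Cav2 at -0.32 ± 0.19 (SE), and the other 6 members between -0.18 and 0.04. No member had all double mutant arrays below all Irx5-/- arrays, where 1.98% of genes did and 0% passed in limma, or all of them above, where 2.13% of genes did. Cav1 lay below without Irx5-/- replicate 3 (4.73% of genes) or double mutant replicate 1 (3.52%), and Cav2 without Irx5-/- replicate 1 (4.34%) or double mutant replicate 2 (4.07%). For Cav1, loss of Irx3 went with -0.29 in Irx5+/- hearts and -0.53 in Irx5-/- hearts, a difference of -0.24 ± 0.26 (SE), and for Cav2 the corresponding difference of differences was -0.02 ± 0.27 (SE). Over the 8 members these ranged from -0.37 ± 0.43 (SE) for Cav3 to 0.31 ± 0.33 (SE) for Cavin4. All of them include the array of conflicting labels. Without that array, loss of Irx3 in Irx5+/- hearts went with -0.41 for Cav1 in place of -0.29. For Cav2 it then went with -0.41 in place of -0.30.

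**Figure D2:**
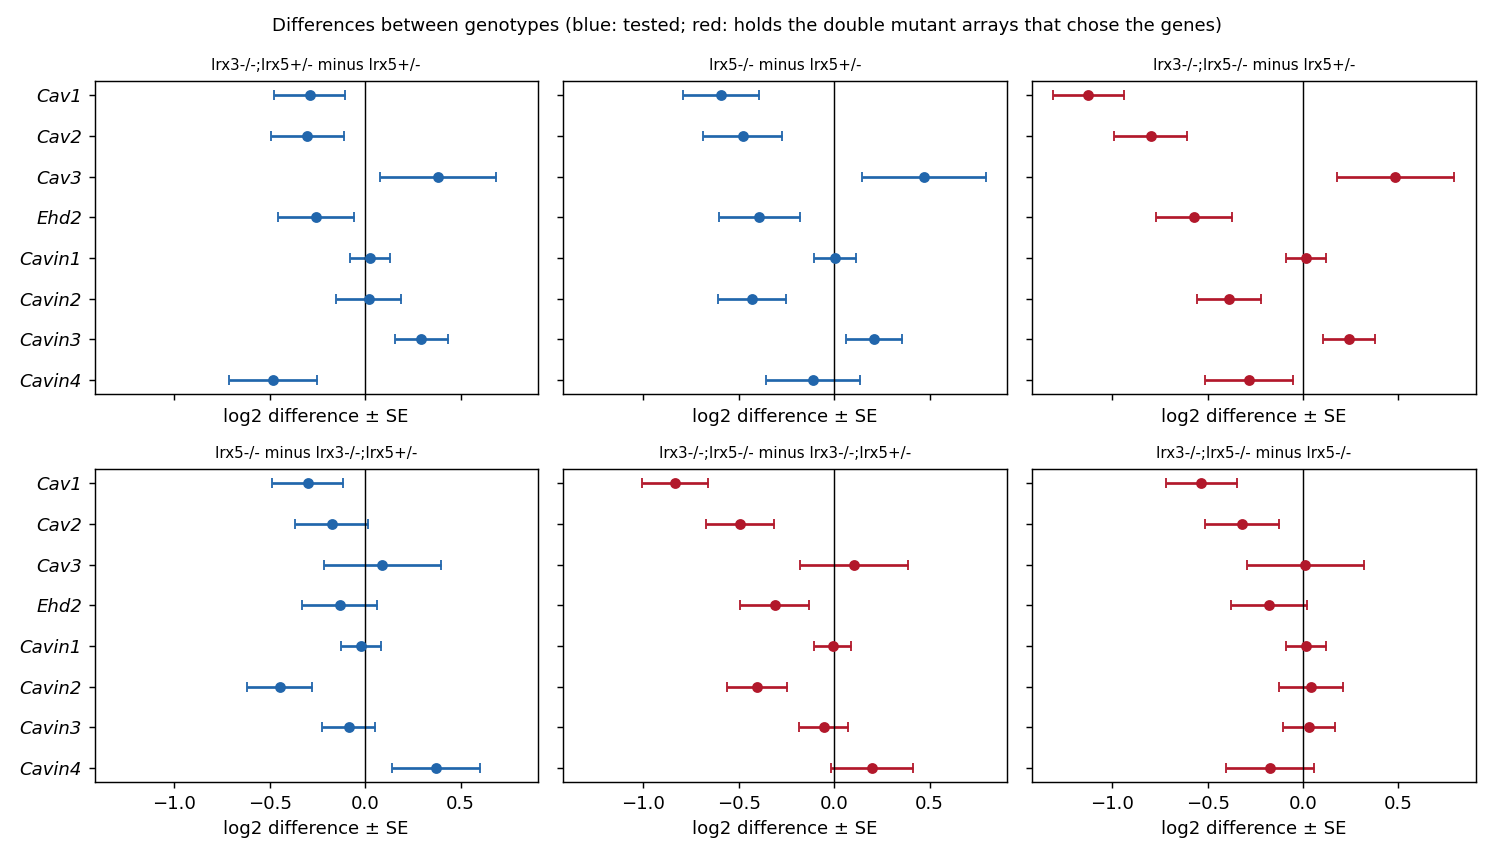
Log2 difference ± SE (x axis) of each member (y axis) in the 6 comparisons between genotypes, from 1 limma fit over 14 arrays. Blue marks comparisons tested here and red those with the double mutant arrays that chose the genes; Cav1 lies left of 0 in all 6, from -0.29 to -1.13, and Cavin1 lies between -0.02 and 0.03. The Irx5+/- arrays were also part of the comparison in which Cav1 was seen to be low.

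Means of endothelial and cardiomyocyte markers were computed for the same arrays. The mean of 22 endothelial and endocardial markers was 10.14 to 10.48 on the Irx5+/- arrays, 9.92 to 10.35 on Irx3-/-;Irx5+/-, 9.48 to 9.73 on Irx5-/- and 9.17 to 10.02 on the double mutants. Pecam1, Cdh5 and Tek, junction and receptor genes of endothelium, were at -0.74 ± 0.27, -0.78 ± 0.23 and -0.81 ± 0.32 (SE) in Irx5-/- against Irx5+/- (limma adjusted p = 0.373, 0.332 and 0.416). All 22 were below 0 in that comparison (median -0.63) and in double mutants against Irx5+/- (median -0.68). In Irx3-/-;Irx5+/-, 20 of 22 were (median -0.16, 0.0017 without reference replicate 2, and -0.25 without the array of conflicting labels). The mean of 16 cardiomyocyte markers was 10.33 to 12.12 on the Irx5+/- arrays, 11.58 to 12.41 on Irx3-/-;Irx5+/-, 11.76 to 12.74 on Irx5-/- and 12.16 to 12.57 on the double mutants, and all 16 were above 0 in each of the 3 comparisons with Irx5+/- (medians 0.92, 0.94 and 1.21). Without reference replicate 3, the array with the lowest cardiomyocyte mean, these medians were 0.35, 0.29 and 0.59, and without reference replicate 1 they were 1.38, 1.37 and 1.69; all 16 genes stayed above 0 in both cases. The list's first genes, Tnnt2, Myh6 and Myh7 of the sarcomere, were at 0.22, 0.97 and 0.84 in Irx5-/- against Irx5+/-. No gene of either list passed in limma in any comparison. In whole hearts, fewer cells of a type and less RNA per cell cannot be told apart.

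Medians of the other marker lists against Irx5+/- lay between -0.18 and 0.20 in the 3 mutant groups (9 smooth muscle and pericyte, 9 epicardial, 8 cushion mesenchyme, 8 macrophage and 6 erythroid genes), and none of their genes passed either. Single genes of these lists lay further out on both sides, and the higher ones named here were chosen after their values were seen. Krt19 and Tbx18, epicardial genes, were at 0.99 ± 0.30 and 0.87 ± 0.35 (SE) in double mutants against Irx5+/-. Sox9 and Vcan, genes of cushion mesenchyme, were at 0.99 ± 0.39 and 0.76 ± 0.22 (SE). They were the only genes of the epicardial and cushion lists with all double mutant arrays above the reference (2 of 9 and 2 of 8). Of all genes, 6.48% did. The highest epicardial value was 1.36, in a gene that overlapped the reference. In the same comparison, 2 of 9 epicardial, 4 of 8 cushion and 6 of 8 macrophage genes were below 0. The lowest smooth muscle and pericyte gene was at -1.16. The cushion, smooth muscle and macrophage lists each had 1 gene with all double mutant arrays below the reference (5.58% of genes). Hbb-y, an embryonic globin gene, was at 3.07 ± 1.09 (SE, limma adjusted p = 0.899) in Irx3-/-;Irx5+/-, where the erythroid mean was 8.10 against 7.51 in the reference. The erythroid median there was 0.15, and 2 of the 6 genes were below 0. Of the members, Cav1 alone was compared with the means of these other lists, by correlation over arrays. Whether these markers account for the values of the members was not tested.

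With the endothelial mean of each array as a term in the fit, the double mutant difference from Irx5+/- was -0.99 ± 0.28 (SE) for Cav1, against -1.13 without it. For Cav2 it was -0.31 ± 0.22 (SE) against -0.80, for Ehd2 -0.19 ± 0.26 (SE) against -0.57, and for Cavin2 0.14 ± 0.16 (SE) against -0.39. Cavin3 was at 0.52 ± 0.18 (SE) against 0.24 and Cavin4 at -0.60 ± 0.33 (SE) against -0.28, both farther from 0 with the term. Cav3 was at 0.23 ± 0.46 (SE) against 0.48, and Cavin1 at -0.07 ± 0.16 (SE) against 0.02. The Cav1 value is the one that chose the family. In Irx5-/- against Irx5+/-, the same term gave -0.47 ± 0.27 (SE, limma adjusted p = 0.65) for Cav1, -0.03 ± 0.22 (SE, adjusted p = 0.971) for Cav2 and 0.05 ± 0.15 (SE, adjusted p = 0.932) for Cavin2. With the cardiomyocyte mean as a term, Cav3 in double mutants against Irx5+/- was at -0.36 ± 0.21 (SE) in place of 0.48, and Cav1 at -1.22 ± 0.25 (SE). The endothelial means of all Irx5-/- and double mutant arrays were below those of all reference arrays. The cardiomyocyte means of all double mutant arrays were above those of all reference arrays. Marker level and genotype therefore cannot be told apart by these fits.

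**Figure D3:**
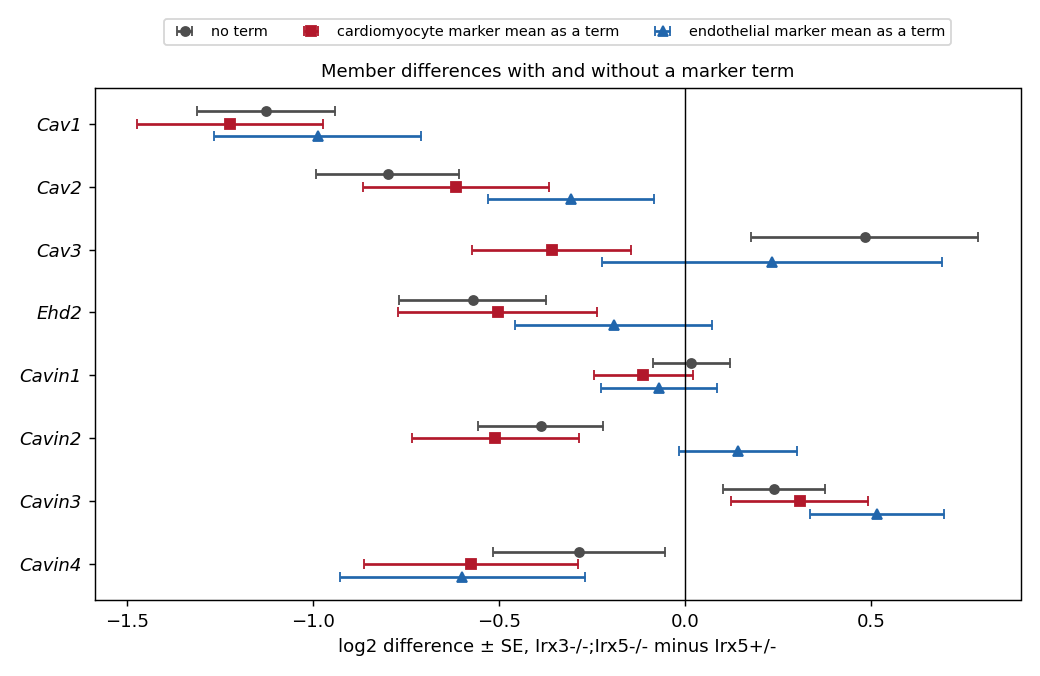
Log2 difference ± SE (x axis) of each member (y axis) between double mutants and Irx5+/-, without a term, with the cardiomyocyte marker mean and with the endothelial marker mean of each array as a term. Cav1 lies at -1.13, -1.22 and -0.99, Cavin2 at 0.14 and Cavin4 at -0.60 with the endothelial term, and Cav3 at -0.36 with the cardiomyocyte term. Neither marker mean overlapped between the double mutant and reference arrays.

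Deviations of each array from its group mean do not use the differences between genotypes, so they were compared between members and markers (8 members by 2 lists, 16 relations, permutation test with 100000 resamples within groups, 2-sided, p-values adjusted over the 16). Cavin2 deviations followed those of the endothelial mean (Pearson r = 0.87, permutation p = 0.00083, adjusted p = 0.0119, Spearman rho = 0.86, permutation p = 0.00215, n = 14 arrays). Cav2 did so too (r = 0.69, permutation p = 0.00667, adjusted p = 0.0356, rho = 0.75, permutation p = 0.00102). Cav3 followed the cardiomyocyte mean (r = 0.88, permutation p = 0.00149, adjusted p = 0.0119, rho = 0.93, permutation p = 0.00099). Without the 2 arrays farthest from the median, r was 0.85, 0.66 and 0.85 in the same order, and without any one array it lay between 0.84 and 0.92, 0.58 and 0.82, and 0.85 and 0.95. For Cavin2 the adjusted permutation p stayed under 0.05 in all 14 of these, with 0.0326 as the highest. For Cav2 it did in 6 of 14, and rose as high as 0.145 without double mutant replicate 2 (r = 0.58), and for Cav3 in 13 of 14, with 0.0503 without Irx3-/-;Irx5+/- replicate 3. The other arrays without which Cav2 did not pass were replicates 2, 3 and 4 of Irx3-/-;Irx5+/-, 1 and 3 of Irx5-/-, and 3 and 4 of the double mutants, with adjusted permutation p from 0.0571 to 0.125.

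Cav1 deviations had r = 0.20 with the endothelial mean (permutation p = 0.669, adjusted p = 0.669, rho = 0.10, permutation p = 0.785), 0.50 without the 2 farthest arrays, and 0.03 to 0.42 without any one array. With the cardiomyocyte mean r was 0.18 (permutation p = 0.492, adjusted p = 0.638, rho = 0.12, permutation p = 0.695). Ehd2 had r = 0.52 with the endothelial mean (permutation p = 0.1, adjusted p = 0.32, rho = 0.67, permutation p = 0.0174) and Cavin1 had r = 0.51 with the cardiomyocyte mean (permutation p = 0.0128, adjusted p = 0.0512, rho = 0.68, permutation p = 0.0113). The remaining 9 relations had adjusted p-values from 0.366 to 0.669. Across the values themselves, group differences included, Cav1 had r = 0.71 and rho = 0.75 with the endothelial mean over 14 arrays, and 0.52 without the 2 farthest, which is a description since the double mutant arrays chose Cav1.

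**Figure D4:**
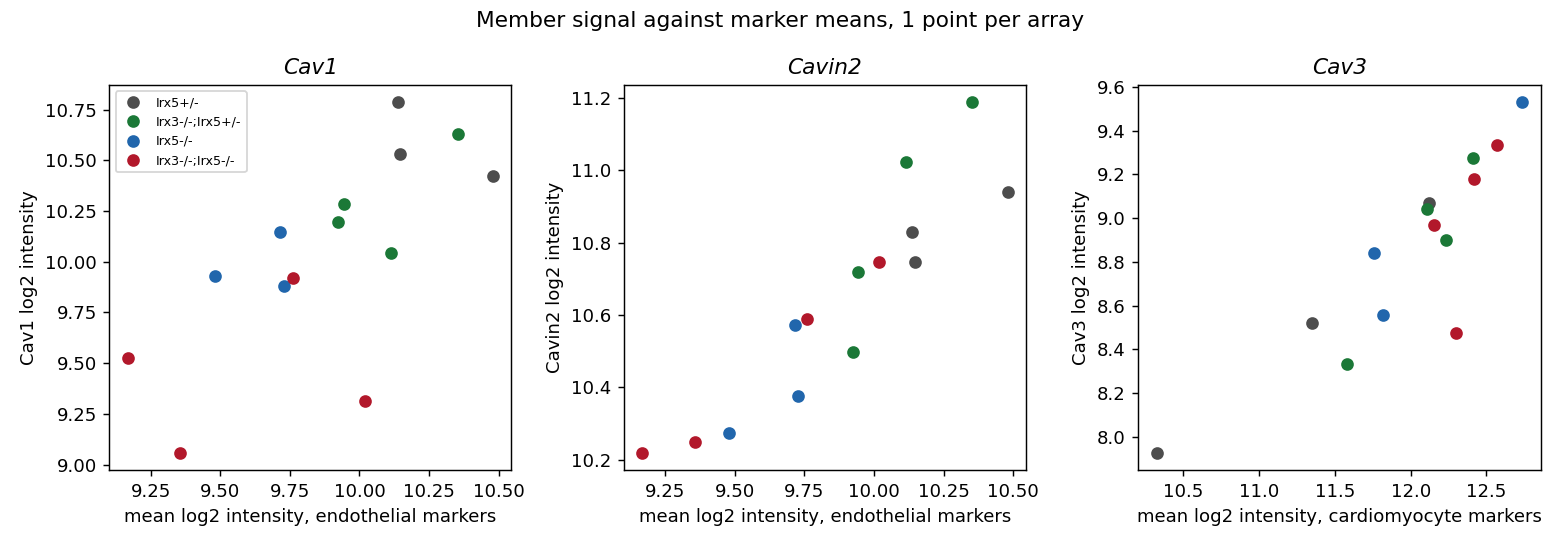
Log2 intensity of Cav1, Cavin2 and Cav3 (y axes) against the mean log2 intensity of a marker list on the same array (x axes: endothelial markers for Cav1 and Cavin2, cardiomyocyte markers for Cav3); points are the 14 arrays, coloured by genotype. On deviations from group means, r was 0.20 for Cav1, 0.87 for Cavin2 and 0.88 for Cav3.

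Genes whose proteins work with caveolae were counted from 3 lists. Of 10 membrane-shaping partners, 0 passed in limma in any comparison, and the medians in Irx3-/-;Irx5+/-, Irx5-/- and double mutants against Irx5+/- were 0.06, 0.01 and -0.02. The first 3 of that list are the F-BAR proteins Pacsin1, Pacsin2 and Pacsin3, which bend membranes at the caveolar neck. Pacsin3, the muscle form, was at 0.21 ± 0.09, 0.25 ± 0.10 and 0.11 ± 0.09 (SE) in the 3 comparisons (limma adjusted p = 0.957 and 0.404 in the tested ones), and Pacsin1 and Pacsin2 lay between -0.05 and 0.06.

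Of 11 signalling and transport proteins of caveolae, 0 passed, with medians of -0.06, -0.11 and -0.15 in the same order. Nos3, the endothelial nitric oxide synthase that caveolin 1 binds, was at -0.06 ± 0.17, -0.48 ± 0.18 and -0.42 ± 0.17 (SE), with limma adjusted p = 1 and 0.398 in the tested comparisons. Plvap, which forms the diaphragm across caveolar openings of endothelium, was at -0.13 ± 0.23, -0.97 ± 0.25 and -0.73 ± 0.23 (SE), with adjusted p = 1 and 0.252. The Nos3 and Plvap arrays of Irx5-/- and of the double mutants all lay below the reference, where 9.52% and 5.58% of genes did. Over the whole list, 3 of 11 genes did in Irx5-/- and 2 in the double mutants. In each of these groups 1 gene of the list had all arrays above the reference, where 6.71% and 6.48% of genes did. Nostrin, which traffics that synthase, was at -0.24, -0.25 and -0.14.

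Of 8 muscle partners of caveolin 3, 0 passed, with medians of 0.07, 0.13 and 0.09. The membrane repair genes Trim72 and Dysf were at 0.06, -0.22 and -0.01 and at 0.10, -0.05 and -0.02, and Dmd, which encodes dystrophin, was at 0.19, 0.31 and 0.20.

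**Figure D5:**
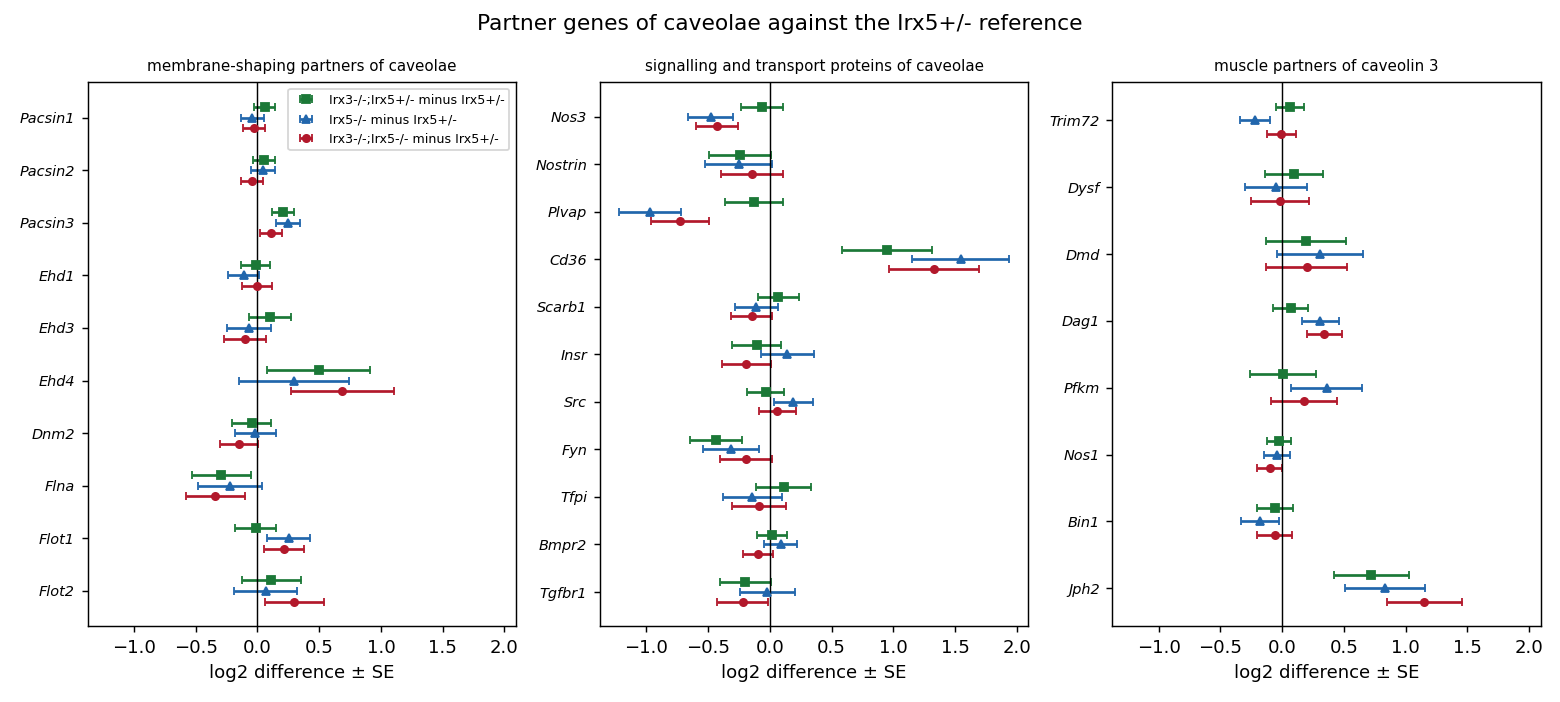
Log2 difference ± SE (x axes) from Irx5+/- of the partner genes of caveolae (y axes) in 3 lists and 3 mutant groups. List medians lie between -0.15 and 0.13; Plvap is at -0.97 and Cd36 at 1.55 in Irx5-/- hearts, and Jph2 is at 1.15 in double mutants.

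Over the 14 arrays, the genes whose values were most like those of Cav1 were Pax8 (r = 0.94), Ccl8 (0.91), Plagl1 (0.89), Malat1 (0.88) and Igha (0.87). On deviations from group means they were Sp140 (0.90), Lrriq1 (0.88), Arhgap15 (0.86), Mxd4 (0.86) and Tmem198 (0.86), so no gene was in both sets of 5. The single most alike gene was Egfl7 for Cav2 (0.89), Ctps for Cav3 (0.95), Itpka for Cavin1 (0.86), Tie1 for Cavin2 (0.96), Ncoa6 for Cavin3 (0.88), Slco6c1 for Cavin4 (0.85) and Kcnd3 for Ehd2 (0.90). These genes were picked for their r among all named genes, so the values are descriptions. Egfl7 and Tie1 are both on the endothelial list.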

How the data were processed

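Per the file headers, the authors made log2 intensities per probe set with RMA in the R package affy and fitted limma models; their versions and a genome build were not given in the sources used here. The deposited log2 values were used without further scaling, and the number of arrays limits their precision. Of 28763 probe sets, 21776 had exactly 1 symbol in the platform annotation (1592 several, 5395 none), and 21685 were matched by gene ID to the reference gene table. For 998 genes with several probe sets the brightest was kept. Differences came from group means fitted to all 14 arrays in limma (version 3.58.1 under R 4.3.3, 10 residual and 3.50 prior degrees of freedom), Benjamini-Hochberg adjustment over all genes and a threshold of 0.05, 2-sided. The procedure was tested on simulated data. Correlations used numpy 2.4.6 with 100000 resamples. Promoter windows are RefSeq's.

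Named were all 8 members, Irx3 and Irx5, the first 3 genes of the partner and main marker lists, any called genes of these lists, and the genes most like each member by r. Cd36, Jph2, Krt19, Tbx18, Sox9, Vcan and Hbb-y were named outside this rule, after their values were seen. The members and lists were chosen with earlier results of these data known. Replicate numbers shared between groups were not treated as pairs in the main fit. Correlations of same-numbered deviations ran from -0.18 to 0.19, and those of other-numbered arrays between groups from -0.35 to 0.30. Whether same-numbered arrays shared a litter or batch was not tested. Alternatives were the samples in the fit, variance moderation, array weights, probe set choice, a filter on dim genes, scaling, the replicate block, marker means as terms and leaving out each array. Leave-one-out counts of non-overlapping members, the 28 member pairs, the 16 member and marker relations and leave-one-out values of the marker lists were added after the data were seen.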

Additional observations from a re-analysis of the deposited data

Results flagged for a closer look

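In groups of 4 arrays, 36 checks asked whether the highest or lowest array stood apart from the others by Dixon's criterion (a gap over 0.829 of the range), and chance gives about 1 in 20. Cav2 stood apart at 8.28 on double mutant replicate 2, above the other 3. Cavin3 did at 9.02 on Irx3-/-;Irx5+/- replicate 2, below the other 3. Among list means, the muscle partners of caveolin 3 were high on double mutant replicate 3 (9.26). Smooth muscle and pericyte markers were low on Irx3-/-;Irx5+/- replicate 4 (9.33) and on double mutant replicate 1 (9.05), and erythroid markers were low on Irx3-/-;Irx5+/- replicate 2 (7.56).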

How the results depend on the processing

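In every alternative run, 0 members passed in limma, with a lowest adjusted p of 0.236 over 373 member fits of the tested comparisons, and 345 of those kept their sign. Signs turned as follows, and the cause was not tested. The cardiomyocyte term gave Cav3 -0.25, Cavin1 -0.071 and Cavin2 -0.073 in Irx3-/-;Irx5+/- against Irx5+/-, and Cav3 -0.17 and Cavin1 -0.095 in Irx5-/- against Irx5+/-. The endothelial term gave Cavin1 -0.074 and Cavin2 0.050 in the latter, and Cav2 0.14, Cav3 -0.072, Cavin3 0.093 and Ehd2 0.11 in Irx5-/- against Irx3-/-;Irx5+/-. Array weights gave Cavin1 -0.00125 in Irx5-/- against Irx5+/- and Cav3 -0.00034 in Irx5-/- against Irx3-/-;Irx5+/-. The replicate block gave Cavin2 -0.00365 in Irx3-/-;Irx5+/- against Irx5+/- and changed no other sign; members called stayed at 0, and 0 genes passed in the tested comparisons. Leaving out each array gave -0.040 to 0.080 for Cavin1 and -0.093 to 0.14 for Cavin2 in Irx3-/-;Irx5+/- against Irx5+/-. It gave -0.034 to 0.036 for Cavin1 and -0.28 to 0.0093 for Cavin4 in Irx5-/- against Irx5+/-, and -0.19 to 0.30 for Cav3, -0.076 to 0.044 for Cavin1 and -0.28 to 0.052 for Ehd2 in Irx5-/- against Irx3-/-;Irx5+/-. The median member difference of double mutants was -0.51 with the cardiomyocyte and -0.13 with the endothelial term against Irx5+/-. Against Irx3-/-;Irx5+/- it was -0.054 with the endothelial term and -0.31 over the 7 members above the median level. Against Irx5-/- it ran from -0.23 to 0.026 over arrays left out. Between Cav1 and marker means, r over arrays left out ran from -0.024 to 0.35 (cardiomyocyte deviations), -0.87 to -0.58 (smooth muscle deviations), -0.55 to 0.20 (epicardial deviations), 0.24 to 0.63 (macrophage values), 0.40 to 0.55 (macrophage deviations), -0.32 to 0.22 (erythroid values) and -0.39 to 0.27 (erythroid deviations). List medians gave 0.58 for macrophage and 0.085 for erythroid values. Genes passing in limma between double mutants and Irx5+/- numbered 4, with 0 to 23 over the alternatives (23 without Irx5+/- replicate 1).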

Other observations

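Among the partner genes, the widest values were those of Cd36, a fatty acid transporter found in caveolae, and Jph2, which ties the plasma membrane to the sarcoplasmic reticulum in heart muscle; both were chosen after their values were seen. Cd36 was at 0.95 ± 0.36 (SE) in Irx3-/-;Irx5+/-, 1.55 ± 0.39 (SE) in Irx5-/- and 1.33 ± 0.36 (SE) in double mutants against Irx5+/- (limma adjusted p = 0.952 and 0.252 in the tested comparisons). All arrays of each group lay above the reference, where 2.86%, 6.71% and 6.48% of genes did. Jph2 was at 0.72 ± 0.30, 0.83 ± 0.33 and 1.15 ± 0.30 (SE), with adjusted p = 0.956 and 0.408. The cardiomyocyte marker means were higher in the same groups, and their part in these values was not tested.

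Over all 28 pairs of members, deviations from group means were most alike for Cav1 and Ehd2 (Pearson r = 0.74, permutation p = 0.0135, adjusted p = 0.149, rho = 0.52, n = 14 arrays, r = 0.49 without the 2 farthest) and for Cav3 and Cavin1 (r = 0.73, permutation p = 0.00306, adjusted p = 0.0857, rho = 0.70, r = 0.74 without the 2 farthest). Cav1 and Cav2, neighbours on chromosome 6, had r = -0.08 (permutation p = 0.786, adjusted p = 0.846, rho = -0.14). No pair was under an adjusted p of 0.05. Cav1 deviations had r = -0.78 with the smooth muscle and pericyte mean (permutation p = 0.0125, adjusted p = 0.0875 over 14 relations, rho = -0.55), and -0.62 without the 2 farthest arrays. Double mutant replicate 1, with the highest Cav1 and the lowest smooth muscle mean of its group, weighs on that value: r was -0.58 without it.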
